A study of Homo sapiens with 6 samples.

Results

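The domain described here is a 10 Mb stretch of the long arm of human chromosome 3, from 170 to 180 Mb (hg38), that holds NAALADL2. Its members are all ChIP-seq peaks of BRG1 and SMARCC2 whose summit lies in it, joined into regions where peaks share at least 1 bp. They form 388 of the 65483 regions of the series. MR49F cells, an enzalutamide-resistant derivative of the prostate adenocarcinoma line LNCaP, were grown with 10 µM enzalutamide, an androgen receptor antagonist. LNCaP cells, which are androgen-sensitive, were grown in the same base medium and no enzalutamide is given for them, so line and drug cannot be told apart. Each line gave 1 BRG1 library, 1 SMARCC2 library and 1 input, and the 2 inputs were not analysed here. With 1 library per line and antibody there is no replicate error for any value below, and no test was made. The domain was chosen because its peaks differed between the lines, so its counts of peaks and regions per line are a description.

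BRG1, encoded by SMARCA4, is an ATPase of SWI/SNF, the complex that slides and evicts nucleosomes and so opens chromatin at enhancers and promoters. SMARCC2, also called BAF170, is a scaffold subunit on which the complex is assembled. In luminal prostate cells the complex is known to work beside the androgen receptor and its partner factors, mostly at distal enhancers. NAALADL2 encodes a membrane protein related to the glutamate carboxypeptidases. TBL1XR1, downstream of it, encodes a subunit of the NCoR and SMRT corepressor complexes.

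The 4 lists held 44308 peaks for MR49F BRG1, 47615 for MR49F SMARCC2, 36174 for LNCaP BRG1 and 25706 for LNCaP SMARCC2. Peaks within 10 kb of 6 luminal prostate genes (KLK3, KLK2, TMPRSS2, FOLH1, HOXB13 and STEAP2) numbered 36 and 42 in MR49F and 42 and 34 in LNCaP, for BRG1 and SMARCC2 in that order. Around 6 genes of other cell types they numbered 8 and 4 in MR49F and 4 and 5 in LNCaP. Of these, PTPRC and COL1A2 had 0 in every list. CD3E had 3 and 1 in MR49F and 1 and 2 in LNCaP, and VIM 1 and 1 against 2 and 2. COL1A1 had 2 and 0 in MR49F and 1 and 1 in LNCaP, and ALB 2 and 2 against 0 and 0.

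Promoter windows of 5 genes are shown, chosen by the peaks within 1 kb of their starts. The summits of these peaks mostly lay outside the windows printed. The start of NAALADL2 and that of TBL1XR1 were occupied in all 4 lists. At TBL1XR1 −log10 q was 29.7 and 16.8 in MR49F and 51.1 and 2.1 in LNCaP, for BRG1 and SMARCC2 in that order. The LNCaP SMARCC2 peak there was thus a weak call. The starts of SKIL and ECT2, and a listed start of KCNMB3, had a peak of both antibodies in MR49F and of neither in LNCaP. A missing peak means only that the site failed to pass the threshold of the caller. Each window runs from 250 bases before to 50 after a start listed by RefSeq (GRCh38.p14, the same build as hg38), 5′ to 3′ on the strand of the gene. Capitals mark matches on either strand to the GC box GGGCGG, the CCAAT box CCAAT and the TATA box TATAAA. The windows are chr3:174859084-174859383 (plus strand) for NAALADL2, chr3:177197433-177197732 (minus strand) for TBL1XR1, chr3:170357465-170357764 (plus) for SKIL, chr3:172750476-172750775 (plus) for ECT2 and chr3:179259842-179260141 (minus) for KCNMB3.
NAALADL2: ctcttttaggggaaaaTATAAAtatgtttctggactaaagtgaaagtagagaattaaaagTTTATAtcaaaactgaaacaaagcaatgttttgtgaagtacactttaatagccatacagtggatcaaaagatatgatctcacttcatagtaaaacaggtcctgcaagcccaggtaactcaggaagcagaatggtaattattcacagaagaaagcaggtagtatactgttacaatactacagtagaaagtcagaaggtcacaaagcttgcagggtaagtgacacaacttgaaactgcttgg
TBL1XR1: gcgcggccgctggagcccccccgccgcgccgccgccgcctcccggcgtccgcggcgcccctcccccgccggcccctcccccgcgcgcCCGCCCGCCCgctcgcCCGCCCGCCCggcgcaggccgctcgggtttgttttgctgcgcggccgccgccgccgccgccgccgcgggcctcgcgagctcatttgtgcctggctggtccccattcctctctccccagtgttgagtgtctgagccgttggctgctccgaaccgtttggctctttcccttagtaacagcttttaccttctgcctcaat
SKIL: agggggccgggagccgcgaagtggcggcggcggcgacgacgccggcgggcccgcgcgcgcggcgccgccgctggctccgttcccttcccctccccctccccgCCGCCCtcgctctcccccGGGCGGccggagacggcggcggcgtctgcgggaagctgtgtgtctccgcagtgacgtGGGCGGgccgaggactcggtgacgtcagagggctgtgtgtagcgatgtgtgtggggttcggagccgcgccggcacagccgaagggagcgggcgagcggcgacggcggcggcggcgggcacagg
ECT2: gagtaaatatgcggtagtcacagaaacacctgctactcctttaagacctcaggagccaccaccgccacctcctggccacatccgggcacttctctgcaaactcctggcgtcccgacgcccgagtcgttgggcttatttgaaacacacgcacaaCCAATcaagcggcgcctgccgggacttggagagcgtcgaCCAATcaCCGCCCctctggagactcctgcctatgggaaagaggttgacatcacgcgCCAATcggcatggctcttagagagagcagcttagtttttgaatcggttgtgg
KCNMB3: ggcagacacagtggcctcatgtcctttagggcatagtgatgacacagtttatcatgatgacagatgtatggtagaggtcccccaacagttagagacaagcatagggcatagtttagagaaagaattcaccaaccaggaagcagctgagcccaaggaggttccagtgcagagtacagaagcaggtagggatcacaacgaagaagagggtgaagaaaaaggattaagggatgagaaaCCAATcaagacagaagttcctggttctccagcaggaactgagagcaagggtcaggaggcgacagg

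The windows differed in composition. That of NAALADL2 was 35.7% G and C, the lowest of the 30 windows of the domain, and held 2 TATA box matches and no GC box. That of TBL1XR1 was 75% G and C and held 4 GC box matches in 2 overlapping pairs. SKIL, which encodes a repressor of TGF-beta signalling, had 79% and 3 GC boxes. ECT2, which is needed for cytokinesis, had 56.3%, 1 GC box and 3 CCAAT boxes. KCNMB3, a potassium channel beta subunit, had 48.7% and 1 CCAAT box. Of the 15843 promoter windows in the table, 58.5% held a GC box, 36.4% a CCAAT box and 9.63% a TATA box, against 17, 14 and 5 of the 30 windows in the domain. Another 5 motifs searched on both strands had no match in the 5 windows shown: ETS CCGGAAG (14.2% of all windows, 4 of 30 in the domain), E-box CACGTG (8.88%, 2), AP-1 TGANTCA (5.75%, 1), forkhead TGTTTAC (2.61%, 2) and the androgen receptor motif AGAACA (11.2%, 2). A match is a description of letters and not a binding site.

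In the domain MR49F had 198 BRG1 peaks, against 301 in LNCaP. It had 236 SMARCC2 peaks, against 222 in LNCaP. The ratio of MR49F to LNCaP peaks was thus 0.658 for BRG1 in the domain and 1.23 in the rest of the series, and 1.06 for SMARCC2 beside 1.86. On chromosome 3 outside the domain the ratios were 1.05 and 1.6. Of the tiled 10 Mb windows with at least 10 peaks, 3 of 308 (0.974%) had a BRG1 ratio at or below that of the domain, and 3 of 307 (0.977%) a SMARCC2 ratio, counts that include the domain itself. Over these windows 9.42% had fewer BRG1 peaks in MR49F than in LNCaP, and 0.651% fewer SMARCC2 peaks. Peaks covered 205 kb in MR49F and 439 kb in LNCaP for BRG1, and 211 kb in MR49F and 207 kb in LNCaP for SMARCC2.

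The ratio was lowest in the middle of the domain. From 174 to 178 Mb, bounds chosen after the values were seen, MR49F had 77 BRG1 peaks against 167 in LNCaP, a ratio of 0.461. It had 87 SMARCC2 peaks there against 112 in LNCaP, a ratio of 0.777. From 170 to 174 Mb the ratios were 0.898 for BRG1 and 1.23 for SMARCC2, and from 178 to 180 Mb they were 0.913 and 1.64. These too were below the ratios in the rest of the series, 1.23 for BRG1 and 1.86 for SMARCC2. In the 1 Mb window that starts at 175 Mb, MR49F had 21 BRG1 and 27 SMARCC2 peaks, against 55 and 44 in LNCaP. In the window that starts at 177 Mb, which holds TBL1XR1, MR49F had 30 and 31, against 61 and 40 in LNCaP. In 3 of the 10 windows MR49F had at most 1 BRG1 peak for every 2 in LNCaP, against 0.97% of 2269 windows of the series, and in 0 it had at least 2 for every 1 in LNCaP (14.7% in the series). For SMARCC2 no window of the 10 passed either limit, against 0.17% and 47.3% of 2354 windows.

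**Figure D1:**
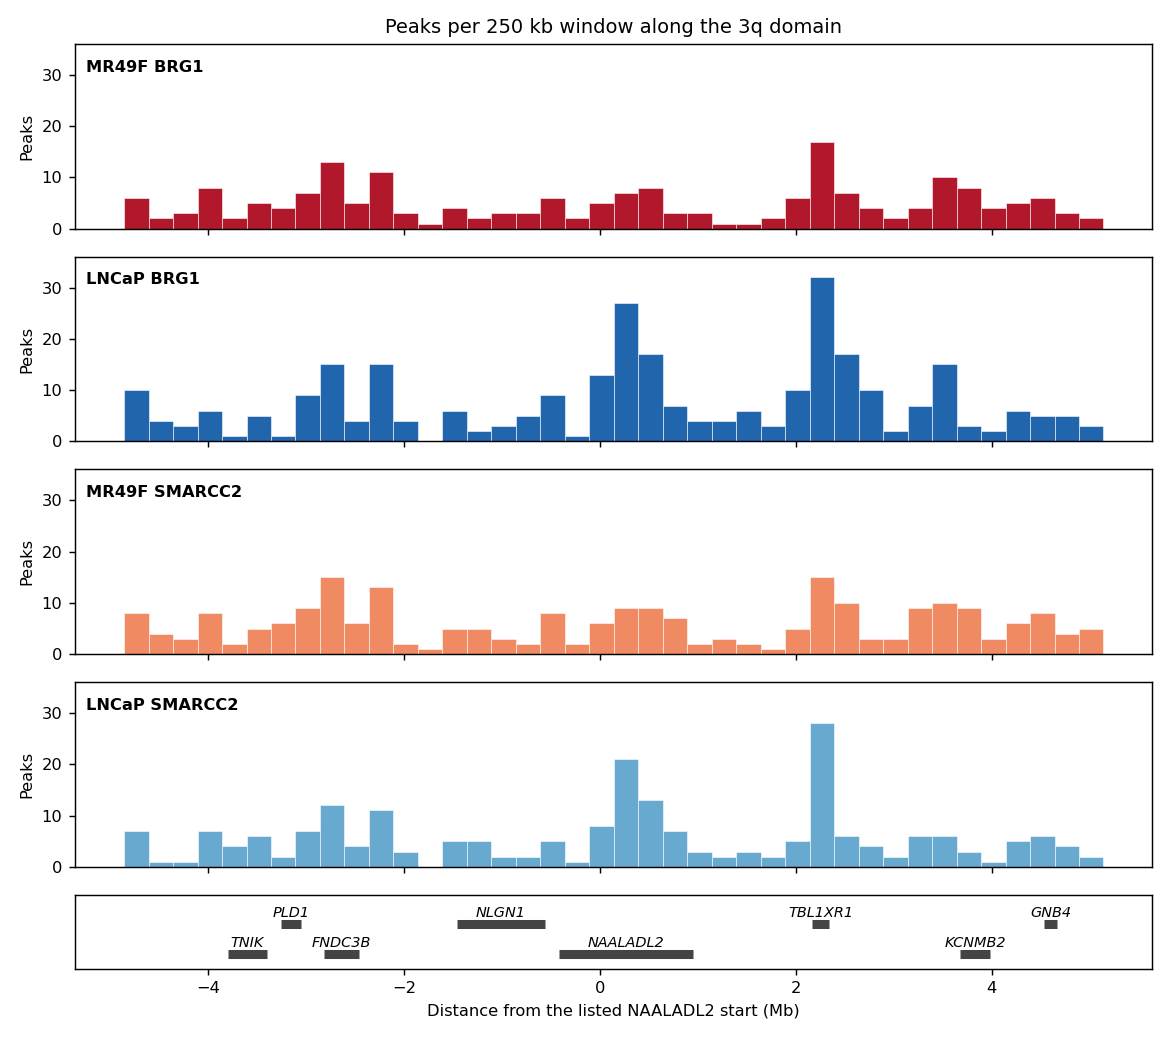
Number of peaks per 250 kb window (y axis) against distance in Mb from the listed NAALADL2 start (x axis), 1 panel per library, with spans of 8 genes below. LNCaP BRG1 reached 27 peaks in a window inside NAALADL2 and 32 in the window over TBL1XR1, where MR49F BRG1 had 7 and 17.

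When regions were classed by the lists that called them, 107 of the 388 (27.6%, Wilson 95% interval 23.4 to 32.2) had a peak in all 4 lists, against 22.7% of all regions of the series. Both antibodies called 29 regions in MR49F only (7.47%, 5.25 to 10.5), against 18.3% in the series. They called 38 in LNCaP only (9.79%, 7.22 to 13.2), against 3.67% in the series. LNCaP BRG1 alone called 90 (23.2%, 19.3 to 27.6), against 10.1%. MR49F SMARCC2 alone called 23 (5.93%), against 12.5%, and MR49F BRG1 alone 13 (3.35%), against 9.03%. LNCaP SMARCC2 alone called 11 (2.84%), against 2.92%. Regions called by LNCaP BRG1 alone were mostly weak, with a median −log10 q of 4.7. Their median position from the top of the list was 71.7% (73.2% in the series), and 84.1% (74.6%) for MR49F SMARCC2 alone. The 38 LNCaP-only regions had medians of 38.5% for BRG1 and 69.4% for SMARCC2 (48.5% and 58.4% in the series). The 29 MR49F-only regions had 50.5% and 51% (52.3% and 50.8%). Intervals cover counting error only, and the domain was selected on such counts, so nothing is read from the difference to the series. The order of the 29 and 38 regions turned with the way peaks were matched: matched by summits within 200 bp they came to 35 for MR49F and 30 for LNCaP, and with reciprocal overlap of at least 50% 40 and 32. With peaks of −log10 q of 5 or more they were 25 and 21. The series had more MR49F-only than LNCaP-only regions in each of these settings, with a ratio between 4.13 and 6.96. When lists were limited to their 10000 strongest peaks, the domain had 9 and 39, and the ratio over the series was 1.25.

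**Figure D2:**
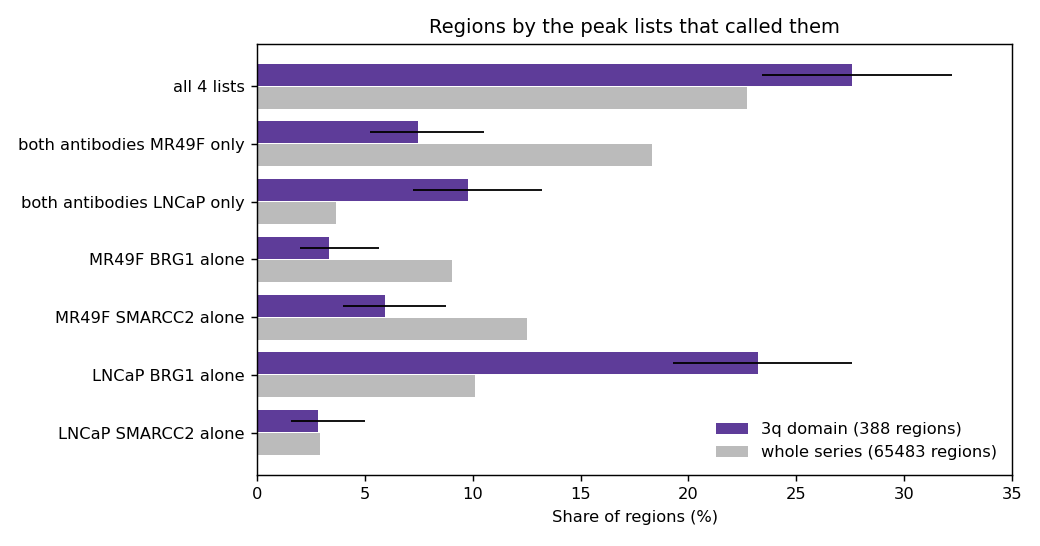
Share of regions in percent (x axis) for 7 classes of peak lists, with domain bars above those of the whole series, and Wilson 95% intervals on the domain bars. The class called in both antibodies in LNCaP only held 9.79% of domain regions and 3.67% of all regions.

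For each antibody alone, BRG1 had 352 regions in the domain, of which 53 (15.1%) had a peak in MR49F alone, 159 (45.2%) in LNCaP alone and 140 in each line. In the series MR49F alone held 37.1% of BRG1 regions and LNCaP alone 21.3%. SMARCC2 had 305 regions, of which 88 (28.9%) had a peak in MR49F alone, 74 (24.3%) in LNCaP alone and 143 in each line. In the series these shares were 53.1% and 11%. The order of the 88 and 74 SMARCC2 regions turned to 21 and 71 when lists were limited to their 10000 strongest peaks, and the counts were 67 and 67 with the domain narrowed by 1 Mb at each end. Where all 4 lists had a single peak, in 82 regions, the BRG1 summits of the lines lay a median of 79 bp apart and the SMARCC2 summits 35.5 bp.

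NAALADL2, which spans 1370 kb from 174440982 to 175810548, held 72 regions, and 66 of them lay further than 100 kb from any end of a protein-coding gene. MR49F had 27 BRG1 and 35 SMARCC2 peaks inside it, against 67 and 52 in LNCaP. BRG1 peaks covered 35.4 kb of it in MR49F and 133 kb in LNCaP. Of the 72 regions, 19 were in all 4 lists, 2 were called with both antibodies in MR49F only, 13 with both in LNCaP only and 25 by LNCaP BRG1 alone. Among all regions of the series these classes held 22.7%, 18.3%, 3.67% and 10.1%. Over the series 6.28% of protein-coding genes held at least 1 LNCaP-only region of both antibodies, and 25.7% at least 1 MR49F-only region.

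LNCaP peaks gathered past the listed NAALADL2 start, which lies 418 kb inside the span. From 200 to 250 kb past it, a stretch chosen after the values were seen, there were 14 regions. All 14 had a LNCaP BRG1 peak and 8 a LNCaP SMARCC2 peak, whereas 0 had a MR49F BRG1 peak and 3 a MR49F SMARCC2 peak. By class, 5 were called with both antibodies in LNCaP only, 6 by LNCaP BRG1 alone and 0 in all 4 lists. Over the series these classes held 3.67%, 10.1% and 22.7% of regions. Gaps without any MR49F peak included 27.8 kb with 11 LNCaP peaks (175063545 to 175091309), within this stretch, 49 kb with 8 LNCaP peaks (174956145 to 175005155) and 62.2 kb with 7 LNCaP peaks (175249354 to 175311602). Gaps without any LNCaP peak were found elsewhere in the domain, among them 132 kb (174200099 to 174331935) and 171 kb (179149680 to 179321114) with 4 MR49F peaks each. How common such gaps are over the series is not given here. The antisense transcript NAALADL2-AS3, which lies in this part of the gene, had 0 MR49F BRG1 and 3 MR49F SMARCC2 peaks, against 11 and 9 in LNCaP. At the listed start itself all 4 lists had a peak, with −log10 q of 33.8 and 22.6 in MR49F and 26.9 and 19.4 in LNCaP for BRG1 and SMARCC2 in that order. Such q-values depend on depth and list and are set side by side without comparison.

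**Figure D3:**
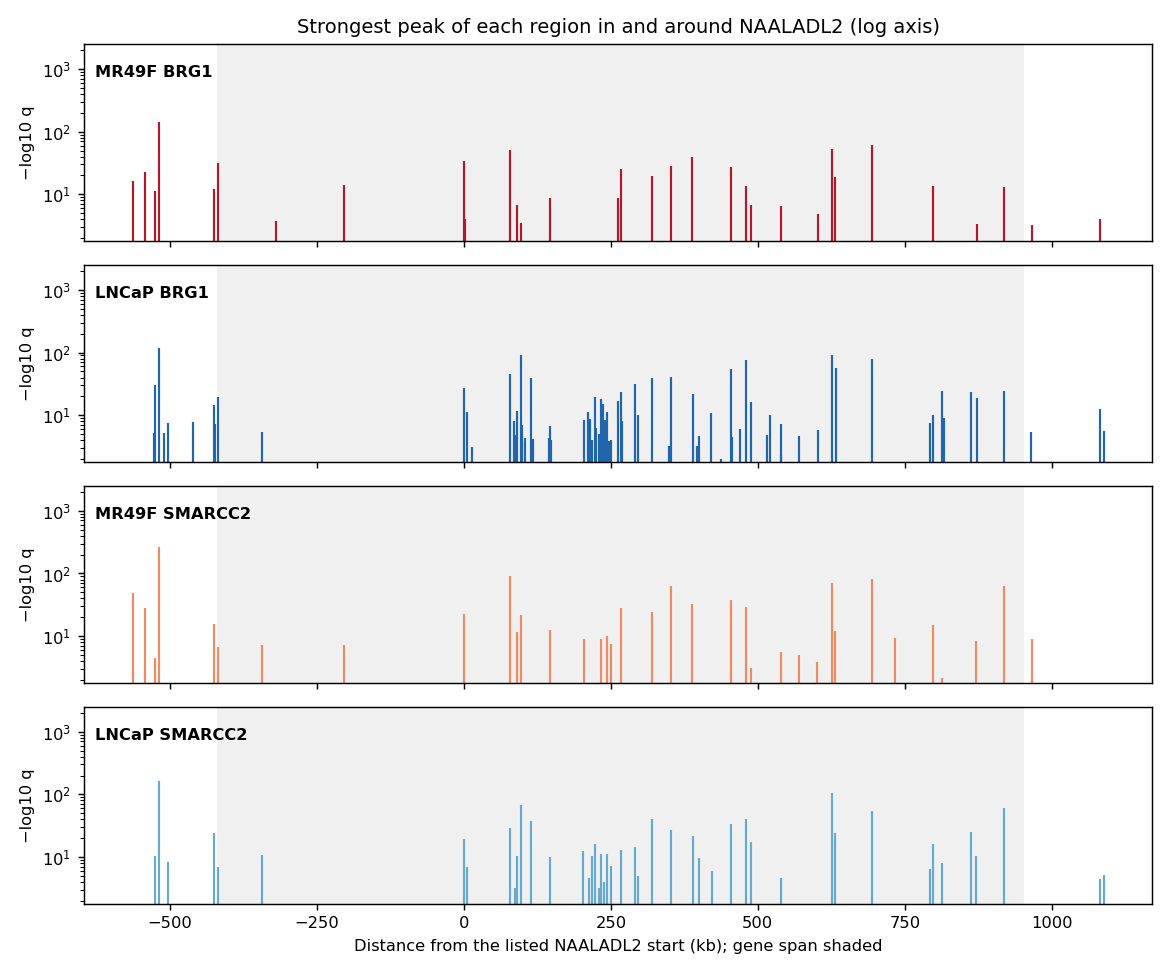
The −log10 q of the strongest peak of each region (log y axis) against distance in kb from the listed NAALADL2 start, 1 panel per library, with the gene span shaded. LNCaP BRG1 had 14 regions from 200 to 250 kb, where MR49F BRG1 had 0; heights are not comparable between panels.

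The 19 NAALADL2 regions found in all 4 lists stood at different places in the lists. Their median position from the top was 20.7% of the MR49F BRG1 list and 18.7% of the MR49F SMARCC2 list. It was 3.23% of the LNCaP BRG1 list and 6.47% of the LNCaP SMARCC2 list. Lists of different length make such positions a description within each list. The 107 such regions of the domain had medians of 30.5% and 25% in MR49F and 11.9% and 20.4% in LNCaP, and the series medians for the class were 27.8% and 27.6% in MR49F and 27.2% and 37.2% in LNCaP.

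TBL1XR1 held 37 regions in 182 kb, 20.3 per 100 kb, against 5.26 per 100 kb in NAALADL2. MR49F had 17 BRG1 and 14 SMARCC2 peaks inside it, against 31 and 28 in LNCaP. Both antibodies called 6 of its regions in LNCaP only and 0 in MR49F only, 9 were in all 4 lists and 11 were called by LNCaP BRG1 alone. Over the series these classes held 3.67%, 18.3%, 22.7% and 10.1% of regions. By nearest gene end within 100 kb it had 46 regions, 8 of them LNCaP-only with both antibodies; within 10 kb the LNCaP-only count was 0, since most of its regions lie deeper in the gene. The 9 shared regions had a median position of 59.9% in the MR49F BRG1 list and 40.8% in the MR49F SMARCC2 list, and of 7.44% and 9.32% in the LNCaP lists.

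Of the genes upstream of both, FNDC3B, an adipogenesis-linked membrane protein gene, had 16 BRG1 and 19 SMARCC2 peaks in MR49F and 17 and 15 in LNCaP, and 11 of its 22 regions were in all 4 lists. NLGN1, a synaptic adhesion protein gene, had 12 and 15 in MR49F and 16 and 14 in LNCaP. PLD1, a phospholipase D gene, had 7 and 10 in MR49F and 7 and 5 in LNCaP. NCEH1, a cholesteryl ester hydrolase gene, had 5 of its 6 regions in all 4 lists, a class that held 22.7% of all regions of the series. TNIK, a kinase of the Wnt pathway, had 6 and 6 in MR49F and 5 and 9 in LNCaP.

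**Figure D4:**
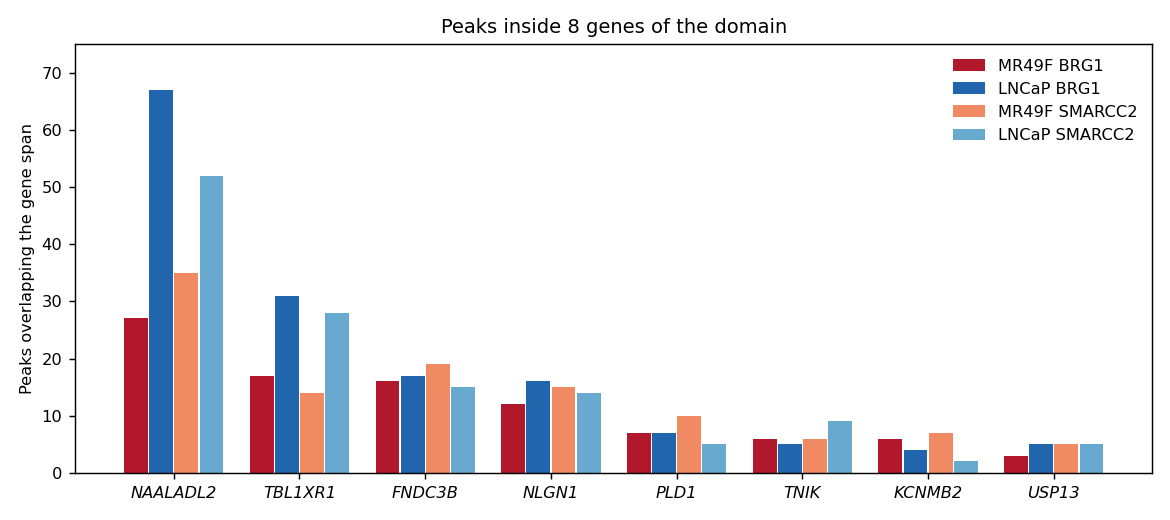
Peaks overlapping the span of 8 genes (y axis), with bars for MR49F and then LNCaP within each antibody. NAALADL2 and TBL1XR1 have fewer MR49F than LNCaP peaks for each antibody, and KCNMB2 has more, 6 and 7 against 4 and 2.

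Around KCNMB2, a potassium channel beta subunit gene, MR49F had more peaks than LNCaP. MR49F also had more in the rest of the series, with ratios of 1.23 for BRG1 and 1.86 for SMARCC2. From 178420778 to 178900331, a stretch chosen after the values were seen, MR49F had 21 BRG1 and 21 SMARCC2 peaks in 23 regions, against 12 and 8 in LNCaP. Both antibodies called 6 of these regions in MR49F only and 0 in LNCaP only, and 5 were in all 4 lists. Over the series these classes held 18.3%, 3.67% and 22.7% of regions. KCNMB2 itself held 3 MR49F-only regions, and by nearest end it had 20 regions within 100 kb and 0 within 10 kb.

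By role, the signalling genes of the domain (10 genes, 9 with a region) had 33 BRG1 and 38 SMARCC2 peaks in MR49F and 33 and 35 in LNCaP. Of these, 3 had more MR49F peaks for each antibody (SKIL, PIK3CA and GNB4) and 1 had fewer (PRKCI). PIK3CA, the catalytic subunit of phosphatidylinositol 3-kinase, had 2 and 2 in MR49F against 1 and 1 in LNCaP. PRKCI, an atypical protein kinase C gene, had 1 and 1 in MR49F against 4 and 3 in LNCaP, with 2 LNCaP-only regions. The 5 chromatin and transcription genes had 23 and 21 in MR49F and 37 and 35 in LNCaP, most of them at TBL1XR1. ACTL6A, which encodes BAF53A, itself a SWI/SNF subunit, had 1 peak of each antibody in MR49F and 0 in LNCaP, at the beginning of its span. The 6 adhesion and channel genes had 22 and 29 in MR49F and 25 and 17 in LNCaP. The mitochondrial genes had 1 and 2 in MR49F and 2 and 2 in LNCaP, all at MFN1, with MRPL47 and NDUFB5 at 0. In all, 28 of 34 protein-coding genes had a region; MR49F peaks outnumbered LNCaP peaks for each antibody in 7 and were outnumbered in 4 (NAALADL2, TBL1XR1, PRKCI and ZMAT3). Over the series 23.2% of genes had more and 3.12% fewer.

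Regions of both antibodies in MR49F only lay inside 13 of the 34 genes, against 10 genes with such regions in LNCaP only; over all protein-coding genes the shares were 25.7% and 6.28%. Inside PLD1, FNDC3B, ECT2, NLGN1 and NAALADL2 both kinds were found. The other MR49F-only ones were in KCNMB2, PHC3 (a Polycomb group gene), SLC7A14, SPATA16, PIK3CA, KCNMB3, GNB4 (a G protein beta subunit gene) and ACTL6A. The other LNCaP-only ones were in TBL1XR1, PRKCI, TNIK, TNFSF10 (which encodes the death ligand TRAIL) and USP13, a deubiquitinase gene. The 4 lipid and vesicle genes that lie in the domain had 16 BRG1 and 21 SMARCC2 peaks in MR49F and 18 and 16 in LNCaP. The noncoding gene LINC00578, past TBL1XR1, had 6 and 5 in MR49F against 16 and 6 in LNCaP, and 9 of its 17 regions were called by LNCaP BRG1 alone. That class held 10.1% of all regions of the series.

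Of 30 genes with a listed start, 20 had a BRG1 and 23 a SMARCC2 peak within 1 kb in MR49F, against 17 and 15 in LNCaP. In the series 56.2% and 52.8% of genes did so in MR49F and 42% and 29.6% in LNCaP. All 4 lists had a peak at 14 starts (23.9% in the series). At 3 starts (SKIL, ECT2 and KCNMB3; 12.3% in the series) both antibodies had a peak in MR49F and neither in LNCaP, and 0 showed the reverse. SKIL had −log10 q of 28.2 for BRG1 and 18.2 for SMARCC2 in MR49F; a LNCaP BRG1 peak of 2.62 joined the same region further than 1 kb from the start. ECT2 had 11.4 and 4.69 in MR49F. KCNMB3 had 17.6 and 20.9 in MR49F, at a peak 1292 and 1326 bp upstream by summit, which lies outside the window printed above. That distance is to the listed start at 179259891, and the peak lies inside the span of the gene. The listed KCNMB3 starts at 179267050 and 179251114 had no peak within 1 kb in any list. At the other printed starts most summits lay outside the window too. For BRG1 and SMARCC2, TBL1XR1 summits lay at 525 and -656 bp from the start in MR49F, and at 447 and 244 in LNCaP. Those of ECT2 lay at -279 and 607 in MR49F. Inside the window lay only the LNCaP SMARCC2 summit of NAALADL2 (-115) and the MR49F SMARCC2 summit of SKIL (31).

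The strongest regions of each class were taken by the worse of the positions that a region has in the lists of its class. Among the regions in all 4 lists, that from 174337009 to 174343374, 45.8 kb from NLGN1, had −log10 q of 145 and 265 in MR49F and 119 and 163 in LNCaP. That from 178081938 to 178088353, 451 kb from a protein-coding gene end, had 147 and 298 in MR49F and 79.2 and 89 in LNCaP. The next 3 lay inside FNDC3B (2) and PLD1. The 5 strongest MR49F-only regions had −log10 q from 15.3 to 22.8 for BRG1 and from 20.9 to 49.1 for SMARCC2. Of them 2 lay near NLGN1, and the others in KCNMB3, SLC7A14 and the noncoding gene LINC01014. The 5 strongest LNCaP-only regions had 19.7 to 39.2 for BRG1 and 14.6 to 37.6 for SMARCC2, and 4 of them lay inside NAALADL2. A region from 176757190 to 176761141, 260 kb from a gene end, ranked 5 of 36174 for LNCaP BRG1 (−log10 q 190) and 94 for LNCaP SMARCC2, and 3234 and 10581 in the longer MR49F lists; it was singled out after its values were seen.

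Wide regions were common here. Of the 388 regions, 32 (8.25%) were at least 3 kb wide, against 3.47% in the series, and 13 of these 32 lay inside NAALADL2 and 5 inside TBL1XR1. The widest, 11220 bp from 175477830 to 175489049 inside NAALADL2, had a peak in all 4 lists. LNCaP BRG1 peaks had a median width of 990 bp in the domain and 743 bp in the series, whereas those of MR49F BRG1 had 848.5 and 820 bp.

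Local background was solved from the authors' fold and p-value at each summit. It is given relative to the median over autosomes in the same library. In MR49F it was 1.06 for BRG1 and 1.1 for SMARCC2 in the domain, against 1.35 and 1.34 in LNCaP, so the ratio of MR49F to LNCaP was 0.79 for BRG1 and 0.819 for SMARCC2. Of 285 autosomal 10 Mb windows, 22 for BRG1 and 19 for SMARCC2 had a ratio at or below these values. Within the domain it was 0.808 for BRG1 and 0.858 for SMARCC2 from 170 to 174 Mb, 0.795 and 0.745 from 174 to 178 Mb, and 0.742 and 0.897 from 178 to 180 Mb. The peak ratios of these blocks, in the same order, were 0.898, 0.461 and 0.913 for BRG1 and 1.23, 0.777 and 1.64 for SMARCC2. In the 10 Mb before the domain the background ratio was 0.886 and 0.873, and in the 10 Mb after it 0.882 and 0.92. Farther out it was 0.811 and 0.831 from 150 to 160 Mb, and 0.804 and 0.884 from 190 to 200 Mb. From 150 to 160 Mb the peak ratio was 0.885 for BRG1 and 1.18 for SMARCC2, and from 160 to 170 Mb 1.05 and 1.68. From 180 to 190 Mb it was 0.842 and 1.28, and from 190 to 200 Mb 1.02 and 1.5. The background is estimated at called peaks only, and 1 input may have served both libraries of a line, so the antibodies are not separate readings of it. Its part in the peak counts was not tested.

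**Figure D5:**
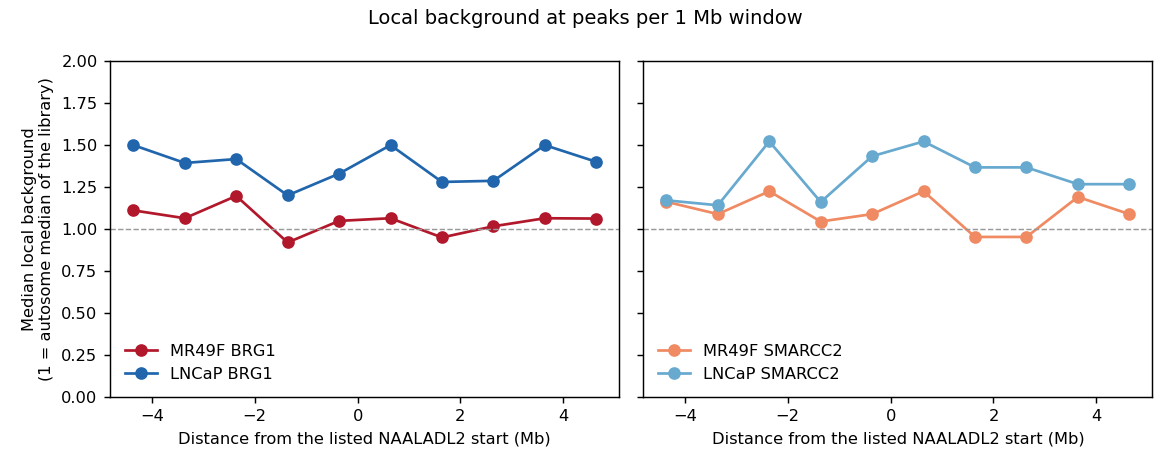
Median local background at peaks per 1 Mb window, relative to the autosome median of the library (y axis, dashed line at 1), against distance in Mb from the listed NAALADL2 start, for BRG1 (left) and SMARCC2 (right). The MR49F line lies below the LNCaP line in each of the 10 windows.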

How the data were processed

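Peak lists of 4 ChIP-seq libraries were analysed. Fixation, per the labels' protocols, used 2 mM DSG for 45 min then 1% formaldehyde for 10 min, with 4 µg of antibody per precipitation. Per the submitters' processing notes, BWA 0.7.10, SAMtools and MACS2 2.1.0 were used with hg38; which input served as control, duplicate handling and depth are details not given in the sources used. The deposited peaks carry a fold enrichment over background (a ratio), −log10 p-values and −log10 q-values, and a display score that was not used, as the authors' caller wrote them.

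From these, peaks sharing at least 1 bp were joined into regions. Gene spans and starts came from RefSeq (GRCh38.p14). Summit pileup and local background were solved from fold, computed with a pseudocount of 1, and the Poisson p-value. More than 1 solution can fit, so the one nearest a whole multiple of the library's pileup step was taken; 1 peak in each SMARCC2 list had no solution, none of them in the domain. The solution was tested on simulated data. Python 3.11.15, NumPy 2.4.6, pandas 2.3.3, SciPy 1.17.1 and matplotlib 3.10.9 were used. With 1 library per group no test was made. Members, gene lists and rules were chosen with earlier results of these data known. Named genes were the 10 with most regions by nearest gene end within 100 kb, genes with a region of both antibodies in 1 line, role lists, and the 5 strongest regions of 3 classes.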

Additional observations from a re-analysis of the deposited data

Results flagged for a closer look

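SMARCC2 and BRG1 differed in the direction of the MR49F to LNCaP peak ratio, a difference that was not tested and whose SMARCC2 side is not stable. Over the domain the log2 ratio was 0.09 for SMARCC2 and -0.6 for BRG1, a difference of 0.69. MR49F held 51.5% of the SMARCC2 peaks of both lines (exact binomial 95% interval 46.8 to 56.2). That interval covers counting error only, not error between libraries, and the domain was chosen on such counts. With 10000 peaks per list, MR49F-only minus LNCaP-only SMARCC2 regions came to -50, the direction of BRG1, and with the domain narrowed by 1 Mb at each end to 0. In single 1 Mb windows the difference was 0.8 at 170 Mb, 0.51 at 172 Mb, 0.36 at 173 Mb, 0.98 at 174 Mb, 1.01 at 178 Mb and 0.68 at 179 Mb, with SMARCC2 above 0 and BRG1 below 0 in each. In the other 4 windows both antibodies had the same direction. MR49F had more peaks at 171 Mb, with ratios of 1.12 for BRG1 and 1.16 for SMARCC2. It had fewer at 175, 176 and 177 Mb, with ratios of 0.382 and 0.614, 0.435 and 0.917, and 0.492 and 0.775. The lists differ in length, and the ratio in the rest of the series is also higher for SMARCC2, 1.86 against 1.23. As log2 ratios these are 0.89 for SMARCC2 and 0.3 for BRG1. Relative to the rest, both antibodies thus had the same direction in the domain, with -0.81 for SMARCC2 and -0.9 for BRG1.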

How the results depend on the processing

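No paired analysis was possible because each group has 1 library. MR49F-only minus LNCaP-only BRG1 regions were -106, and -64 with −log10 q of 5 or more, -61 when each list kept its 10000 strongest peaks. The SMARCC2 difference was 14; it was 35 with the q-value limit, -50 with the 10000 strongest peaks and 0 with the domain narrowed by 1 Mb at each end. Regions of both antibodies gave -9, and 4 with the q-value limit, -30 with the 10000 strongest peaks, 5 with summits within 200 bp and 8 with reciprocal overlap. The share in all 4 lists was 27.6%, and 17.6% with 10000 peaks per list, 15% by summits and 12.8% with reciprocal overlap. Regions assigned to a gene numbered 213, and 46 within 10 kb; LNCaP-only regions at TBL1XR1 numbered 8 and 0. The log2 peak ratio minus that of the rest kept its sign in every setting run, from -0.89 to -1.03 for BRG1 and from -0.79 to -0.89 for SMARCC2. The background ratio stayed between 0.718 and 0.871 for BRG1 and between 0.731 and 0.861 for SMARCC2. The cause of these moves was not tested. Depth is unknown, and a site without a peak only failed to pass the threshold of the caller.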
